A study of Homo sapiens with 30 samples.

Results

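T47D cells that carried a control siRNA (siControl) were profiled by RNA-seq with and without progestin. T47D is an established human luminal breast cancer line that is rich in progesterone receptor. The comparison rests on 4 of the 30 samples of the series, chosen by their titles: 2 untreated libraries with the time label T0 and 2 libraries treated with the synthetic progestin R5020 at 10 nM, with the time label T360. The labels give the time no unit. All 4 had a short arrest of 4 hours in medium with charcoal-treated serum before hormone, at passages 18 to 20. No untreated library carries the label T360, so hormone and time label cannot be told apart. The closest experiment is the same treatment in T47D cells transfected with an siRNA against CEBPA (siCEBPA, 2 untreated and 2 progestin libraries, with the same arrest and time labels). These 8 siRNA libraries were fitted together. No label ties the replicates to cultures of their own. The p-values therefore speak only of the variation among these libraries, part of which may be technical, and all results come from 1 cell line.

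The progesterone receptor is a transcription factor of the nuclear receptor family. When bound by hormone it moves onto DNA, recruits coregulators and raises or lowers transcription of many genes. In the mammary gland progestins act on hormone-sensing luminal cells, which signal to their neighbours through secreted factors, and the receptor shares its DNA motif with the glucocorticoid, androgen and mineralocorticoid receptors. The text below leaves aside the classical progestin targets, the cell cycle and lipid synthesis, and describes the rest of the response.

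The 4 siControl libraries held between 62666783 and 148624099 counted read pairs, and the deepest was untreated replicate 2. Mitochondrial genes took between 3.76% and 4.96% of counts in these 4 libraries. Replicates correlated at 0.9957 (untreated) and 0.9946 (progestin) in Pearson's r of log2 CPM across genes, which are not independent replicates. Levels below are CPM (counts scaled to the library size after TMM correction), given in the order untreated replicates 1 and 2, then progestin replicates 1 and 2. Changes are fitted log2 changes with their standard error (SE) from edgeR's quasi-likelihood test, with Benjamini-Hochberg adjusted p-values over all genes. CEBPA, the target of the other siRNA, stood at 47.5 and 54.2 CPM in untreated siControl libraries and at 10.7 and 12.1 CPM in untreated siCEBPA libraries. With progestin it was at 204 and 202 CPM in siControl and at 57.6 and 61.9 CPM in siCEBPA libraries.

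The cells expressed the luminal markers, and several of these fell with progestin. KRT8 lay between 2272 and 2583 CPM and CDH1 between 923 and 979 CPM in the 4 libraries, and neither passed the test. Of 12 luminal markers, all tested, 2 rose and 6 fell, with summed levels of 10370 and 10800 CPM untreated and 10360 and 10980 CPM with progestin. FOXA1, a luminal transcription factor, fell from 429 and 449 to 68.9 and 75.5 CPM (log2 change -2.60, SE 0.05). PGR, which encodes the progesterone receptor, fell from 984 and 970.1 to 268 and 277 CPM (log2 change -1.84, SE 0.04). ESR1, GATA3, XBP1 and KRT18 fell by 0.59 to 0.65 on the log2 scale. KRT19, the larger of the 2 rises, went from 2180 and 2413 to 4034 and 4373 CPM and so took a larger part of the sum. Of 8 basal markers 6 were tested, with summed levels of 23.1 and 21.5 CPM untreated and 14 and 16.7 CPM with progestin, and KRT14 and CNN1 were under the filter. Fibroblast markers summed to 65.1 and 72.1 CPM untreated and 58.4 and 58.3 CPM with progestin. COL1A1 made up most of this, at 61.6 and 68.9 CPM untreated and 54.8 and 54.7 CPM with progestin. Endothelial and blood cell markers summed to at most 1.25 CPM in each library. In bulk RNA, fewer cells with a transcript and less of it per cell cannot be told apart.

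In the fit of the 8 libraries more of the tested genes were called than not, which did not hold in some fits that left out 1 library. Of 60554 genes in the files, 18351 passed the filter on low counts, and 10741 of these (58.5%) passed an adjusted p of 0.05. They divided into 5367 higher genes (29.2%) and 5374 lower genes (29.3%). Most of these changes were small: 5308 of the called genes changed by under 1.5-fold and 2394 by 1.5-fold to 2-fold. At least 2-fold changes were found for 3039 genes (16.6%), of which 1503 were higher (8.19%) and 1536 lower (8.37%). A change of 8-fold or more was found for 329 genes, 215 of them higher and 114 lower. Higher genes took 39.9% and 39.5% of the counts of tested genes in the untreated libraries and 52.65% and 52.58% in the progestin libraries. Lower genes took 28.3% and 27.9% before and 18.4% and 18.6% after treatment. Both libraries of one group lay above both of the other for 79.2% of all tested genes.

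The direction of small changes depended on the scaling. The median log2 change of all tested genes was -0.03 with TMM factors, -0.15 with upper quartile scaling and -0.19 with no scaling factors. The share of higher genes among the called genes moved with it, from 49.97% to 38.2% and 33.9%, and DESeq2's size factors gave 53.7%. No gene called with TMM factors was called in the opposite direction under another of these scalings. The changes of at least 2-fold that lead the accounts below are far larger than this shift.

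The 12 largest rises and 12 largest falls were taken from called genes whose mean reached 5 CPM with or without hormone. The largest rises began from genes that were nearly silent, and ranking by log2 change favours such low starts. ZBTB7C, a zinc finger protein of the BTB family (hg38 chr18:48026673-48410752, minus strand), stood at 0.272 and 0.258 CPM untreated and at 23.3 and 22.4 CPM with progestin. Its log2 change was 6.43 (SE 0.13, adjusted p = 9.35e-16). CAVIN2, a coat protein of caveolae (hg38 chr2:191834302-191847255, minus strand), went from 0.114 and 0.146 to 6.96 and 8.08 CPM, a log2 change of 5.78 (SE 0.19). KCNC1, a voltage-gated potassium channel (hg38 chr11:17734812-17783055, plus strand), went from 0.658 and 0.689 to 19.8 and 21 CPM (log2 change 4.91, SE 0.11). In all 3 genes the groups were separated by a gap many times the distance between replicates.

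The other large rises came from transporters, enzymes and little-studied genes. SCNN1G, the gamma subunit of the epithelial sodium channel, was at 0.286 and 0.503 CPM untreated and 11.7 and 12.2 CPM with progestin, a log2 change of 4.80 (SE 0.18). SLC25A18, a mitochondrial glutamate carrier, went from 0.986 and 0.609 to 19.8 and 18.8 CPM (log2 change 4.70, SE 0.14). HPD, which acts in tyrosine breakdown, went from 0.229 and 0.371 to 9.06 and 7.40 CPM. ALPL, the tissue-nonspecific alkaline phosphatase, went from 0.600 and 0.530 to 12.7 and 14.5 CPM. ANKRD35, the palmitoyltransferase ZDHHC14, the microtubule-binding MAP7D2 and ABTB3 made up most of the rest, with log2 changes between 4.71 and 4.84. TRIM22, an interferon-inducible ubiquitin ligase, was the least certain of the 12: it went from 0.472 and 0.450 to 11.5 and 8.65 CPM, with an SE of 0.43 and an adjusted p of 0.000289.

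The largest falls came from genes with a clear level in untreated cells, since only that level could bring a fallen gene to the required 5 CPM. RBBP8NL was at 14.9 and 15.1 CPM untreated and at 0.784 and 0.832 CPM with progestin, a log2 change of -4.22 (SE 0.12, adjusted p = 5.18e-14). AMIGO2, an adhesion protein with immunoglobulin and leucine-rich domains, went from 52.9 and 54.4 to 3.86 and 3.90 CPM (log2 change -3.79, SE 0.09). VAV3, an exchange factor that activates small GTPases, went from 245 and 231 to 26.2 and 29.2 CPM (log2 change -3.10, SE 0.08). It had the highest starting level of the 12.

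DUSP6, a phosphatase that switches off ERK, went from 33.5 and 35.8 to 3.47 and 4.00 CPM (log2 change -3.22, SE 0.11). TNFSF15, a cytokine of the tumour necrosis factor family, went from 9.64 and 7.80 to 0.752 and 0.676 CPM. NUAK2, a kinase related to AMPK, went from 16.8 and 18.8 to 1.82 and 1.96 CPM. STC1, a secreted glycoprotein of the stanniocalcin family, was at 47.7 CPM in each untreated library and at 4.93 and 4.85 CPM with progestin. RIPOR3, STMND1, NCMAP, the exchange factor FGD3 and the long non-coding RNA LINC01687 completed the 12, with log2 changes between -3.05 and -3.85. In none of the 24 genes did the untreated and progestin libraries overlap, which the choice of these genes had required.

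**Figure D1:**
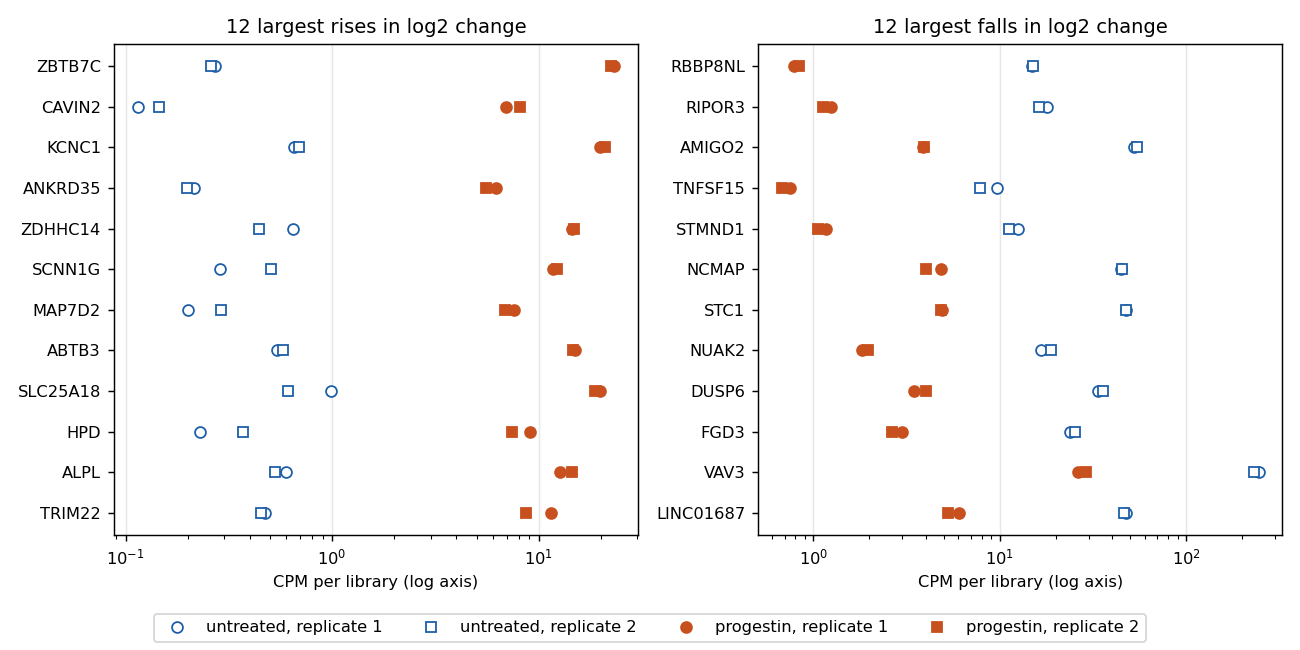
Level in each siControl library of the 12 genes with the largest rises (left) and the 12 with the largest falls (right), in CPM on a log axis, with open blue symbols for untreated and filled orange symbols for progestin libraries. The 12 risen genes lay under 1 CPM in every untreated library, and the untreated VAV3 libraries stand farthest to the right among the fallen genes.

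The largest changes in abundance were in other genes, among them AHNAK and DAB2IP. AHNAK, a giant scaffold protein, rose from 2243 and 2361 to 4824 and 5353 CPM (log2 change 1.14, SE 0.05). DAB2IP, a scaffold that restrains RAS, rose from 172 and 176 to 1174 and 1142 CPM (log2 change 2.73, SE 0.05). MAT2A, which makes S-adenosylmethionine, rose from 483 and 529 to 1486 and 1430 CPM (log2 change 1.53, SE 0.06).

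IGFBP5, an insulin-like growth factor binding protein, fell from 2112 and 2272 to 886 and 874 CPM (log2 change -1.32, SE 0.05). STC2, the paralog of STC1, fell from 1133 and 1242 to 387 and 391 CPM (log2 change -1.61, SE 0.05). The actin-binding LASP1 fell from 912 and 938 to 466 and 474 CPM (log2 change -0.98, SE 0.04). PLK2, a kinase of the polo family, fell from 495 and 489 to 59.7 and 68.9 CPM, the steepest fall of these 4 genes (log2 change -2.94, SE 0.06).

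Gene lists by function are described next by counts, medians and single genes, beside the values of all tested genes given above. A list near 29.2% higher and 29.3% lower, or near 8.19% and 8.37% at 2-fold, stands at the background. No test of any list was made. Of the 43 lists, the highest shares of 2-fold higher members were in sodium transport and the EGF family (29.4% each), cyclic nucleotide and G protein signalling (28.6%) and glycolysis (27.8%). The highest shares of 2-fold lower members were in the NF-kappaB and cytokine list and the ERK feedback list (27.3% each).

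**Figure D2:**
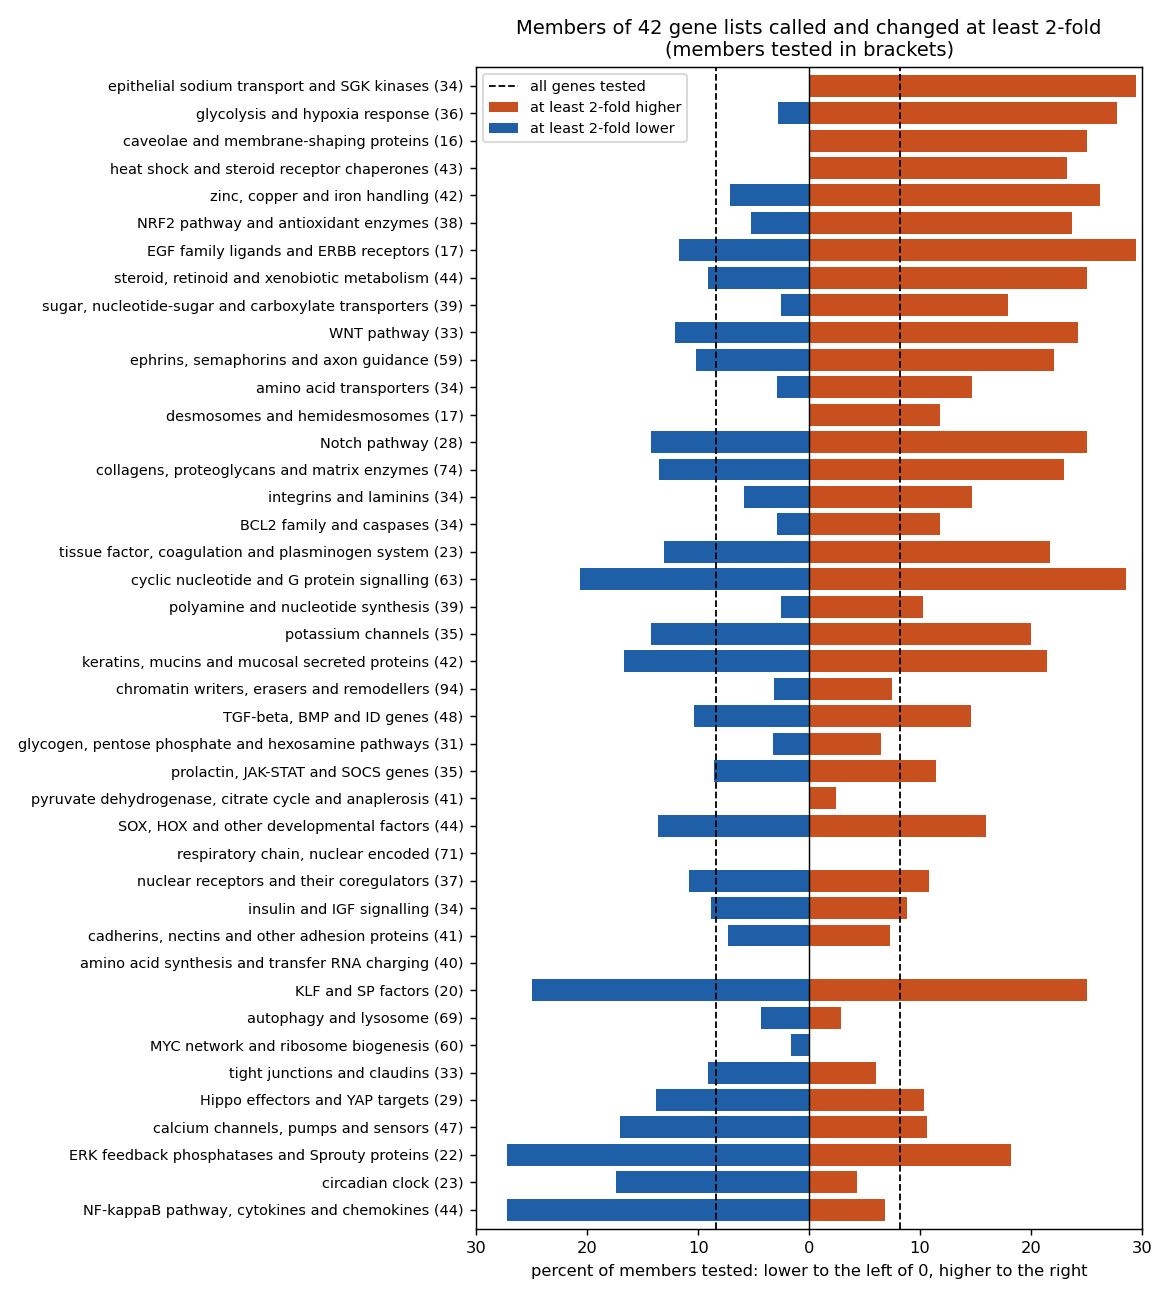
Share of the tested members of each of 42 gene lists that were called and changed at least 2-fold, in percent, with lower members to the left of 0 (blue) and higher members to the right (orange). Dashed lines mark all tested genes at 8.37% lower and 8.19% higher, the sodium transport list reaches 29.4% higher, and the NF-kappaB and cytokine list reaches 27.3% lower.

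Among nuclear receptors and their coregulators, 15 of 37 tested members rose and 12 fell, with 4 each at 2-fold. VDR, the vitamin D receptor, rose from 99.4 and 103 to 451 and 446 CPM (log2 change 2.15, SE 0.04). THRB, a thyroid hormone receptor, rose from 16.1 and 16.9 to 73.2 and 70.5 CPM (log2 change 2.12, SE 0.06). NR3C1, the glucocorticoid receptor, fell from 24.2 and 23.7 to 15.7 and 14.8 CPM (log2 change -0.65, SE 0.07). NR4A1, an orphan receptor induced by many growth signals, fell from 20.3 and 19.8 to 4.94 and 4.99 CPM (log2 change -2.01, SE 0.08). The coactivator PPARGC1A, known for mitochondrial biogenesis, fell from 6.55 and 5.93 to 1.62 and 1.73 CPM (log2 change -1.89, SE 0.13).

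The negative feedback genes of the ERK pathway moved in both directions. Of 22 tested members 7 rose and 9 fell, with 4 and 6 at 2-fold. DUSP4 fell beside DUSP6, from 82.9 and 88.1 to 15 and 14 CPM (log2 change -2.56, SE 0.06). SPRY1 and SPRY4, Sprouty proteins that block receptor tyrosine kinase signalling, fell by 1.96 (SE 0.07) and 1.91 (SE 0.15) on the log2 scale. DUSP1, a nuclear phosphatase for p38, JNK and ERK, rose from 8.85 and 8.47 to 45.2 and 45.4 CPM (log2 change 2.39, SE 0.07).

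Upstream of these, the EGF family lost and gained ligands. AREG, a ligand of EGFR, fell from 10.7 and 10.8 to 3.73 and 3.64 CPM, while TGFA rose from 15.5 and 15.7 to 44.2 and 42.5 CPM and EGF from 17 and 16.7 to 51.7 and 51.5 CPM. Their log2 changes were -1.55 (SE 0.10), 1.47 (SE 0.06) and 1.62 (SE 0.06). The receptor EGFR rose from 36.6 and 36.4 to 70.6 and 76.9 CPM (log2 change 1.01, SE 0.06) and ERBB4 fell from 22.7 and 20.2 to 6.70 and 7.37 CPM (log2 change -1.61, SE 0.08). LRIG1, which promotes degradation of these receptors, rose from 142 and 146 to 393 and 384 CPM. Of the 17 tested members of this list, 5 were higher and 2 lower at 2-fold.

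Cytokine and NF-kappaB genes fell more often than they rose. Of the 60 genes of this list, 44 passed the filter, 8 rose and 25 fell, with 3 and 12 at 2-fold. The median log2 change was -0.67, against -0.03 for all genes, and the 16 members under the filter included CXCL8, IL6, IL1A and IL1B. CXCL12, a chemokine, fell from 244 and 251 to 59.4 and 54.6 CPM (log2 change -2.12, SE 0.05). TNFSF10, which encodes the death ligand TRAIL, fell from 69.7 and 63.9 to 16.3 and 14.7 CPM (log2 change -2.11, SE 0.07). The 2 largest rises were inhibitors of the pathway. NFKBIA, which holds NF-kappaB in the cytoplasm, rose from 54.5 and 57.1 to 212 and 219 CPM (log2 change 1.95, SE 0.05), and ZC3H12A, an RNase that degrades cytokine messages, rose from 8.84 and 9.70 to 43.5 and 47.6 CPM (log2 change 2.29, SE 0.09).

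TNFRSF10A, a receptor for TRAIL, rose from 17.8 and 17.4 to 90.2 and 87.5 CPM (log2 change 2.34, SE 0.05). In the same list of BCL2 proteins and caspases, 14 of 34 tested members rose and 12 fell. BCL2L1, which encodes the survival protein BCL-XL, rose from 224 and 229 to 521 and 514 CPM (log2 change 1.19, SE 0.04). BCL2 itself was low, at 1.12 and 1.64 CPM untreated and 0.304 and 0.381 CPM with progestin (log2 change -2.05, SE 0.28). The cell death activator BIK rose from 3.79 and 4.27 to 13.9 and 13.6 CPM.

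Genes of cyclic nucleotide and G protein signalling changed in both directions and by large amounts. Among 63 tested members of 75, 29 rose and 22 fell, with 18 and 13 at 2-fold. S1PR2, a receptor for sphingosine-1-phosphate, rose from 2.89 and 3.19 to 15.4 and 16.2 CPM (log2 change 2.36, SE 0.10). ACKR3, a scavenging receptor for CXCL12, fell from 1.26 and 1.42 to 0.0640 and 0.121 CPM (log2 change -3.86, SE 0.36).

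In the list of prolactin, JAK-STAT and SOCS genes 20 of 35 tested members rose and 8 fell. IL20RA, a receptor chain for the IL-20 family of cytokines, rose from 28.6 and 30.3 to 268 and 257 CPM (log2 change 3.15, SE 0.05). SOCS1, an inhibitor of JAK kinases, rose from 0.214 and 0.397 to 1.71 and 1.77 CPM (log2 change 2.40, SE 0.33). STAT6 fell from 218 and 225 to 83.1 and 86.1 CPM (log2 change -1.39, SE 0.04), and JAK3 fell from 6.98 and 7.21 to 2.11 and 1.86 CPM.

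The Notch and WNT lists held genes that moved in both directions. Of 28 tested Notch genes 12 rose and 8 fell. The ligands DLL4 and JAG1 rose, DLL4 from 0.486 and 0.583 to 6.53 and 5.79 CPM (log2 change 3.49, SE 0.18) and JAG1 from 2.67 and 2.62 to 15.3 and 14 CPM (log2 change 2.47, SE 0.11). HES1, a classical Notch target, fell from 20.6 and 22.1 to 8.39 and 8.34 CPM (log2 change -1.36, SE 0.08), and its relative HES2 rose from 2.72 and 3.31 to 24.0 and 23.8 CPM. NOTCH1 did not pass the test (log2 change -0.22, SE 0.15, adjusted p = 0.265).

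In the WNT list 15 of 33 tested members rose and 10 fell. WNT7B, a ligand, rose from 11.9 and 12.1 to 46.1 and 45.6 CPM (log2 change 1.94, SE 0.07). RNF43, a ubiquitin ligase that removes WNT receptors, fell from 14.4 and 12.7 to 2.75 and 2.38 CPM (log2 change -2.39, SE 0.11). TCF7L1, a transcription factor of the pathway, rose from 9.26 and 9.07 to 46.8 and 44.4 CPM (log2 change 2.32, SE 0.07). With no scaling factors the medians of the Notch and WNT lists turned from 0.12 and 0.14 to -0.03 and -0.01.

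Of the TGF-beta and BMP genes, 17 of 48 tested rose and 17 fell. INHBB, which encodes an activin subunit, rose from 59.2 and 64.9 to 301 and 305 CPM (log2 change 2.29, SE 0.05). ID1 fell from 15 and 16.3 to 6.77 and 7.04 CPM while ID2 rose from 15 and 16.5 to 62.3 and 61.2 CPM. Both encode inhibitors of basic helix-loop-helix factors, and their log2 changes were -1.18 (SE 0.08) and 1.97 (SE 0.08). CCN2, a matrix-associated protein induced by TGF-beta and YAP, fell from 2.83 and 2.48 to 0.288 and 0.295 CPM (log2 change -3.17, SE 0.21). Of 59 tested ephrin, semaphorin and axon guidance genes 22 rose and 20 fell, with 13 and 6 at 2-fold. EFNA3, an ephrin ligand, rose from 11.3 and 11.5 to 114 and 111 CPM (log2 change 3.30, SE 0.06), and SEMA7A rose from 3.32 and 3.15 to 17.7 and 19.9 CPM. Among the falls, SEMA3C, a secreted semaphorin, went from 223 and 204 to 101 and 100.4 CPM (log2 change -1.08, SE 0.05) and EPHB3, an ephrin receptor, from 93.6 and 99.2 to 46.6 and 46.8 CPM (log2 change -1.05, SE 0.05), and both were picked after their values were seen.

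Transcription factors of the KLF and SP family were evenly divided. Of 20 tested members 8 rose and 10 fell, with 5 each at 2-fold. KLF15, a regulator of amino acid and glucose metabolism, rose from 0.886 and 0.848 to 16.1 and 14.2 CPM (log2 change 4.13, SE 0.12). KLF4 rose from 30.4 and 34.4 to 102 and 104 CPM (log2 change 1.67, SE 0.07). SP4 and KLF12 fell by 1.75 (SE 0.11) and 1.70 (SE 0.20) on the log2 scale.

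Other developmental factors followed no single direction. SOX9 rose from 33.9 and 36.1 to 91.2 and 97.7 CPM (log2 change 1.43, SE 0.05), and SOX2 fell from 4.46 and 5.001 to 0.368 and 0.468 CPM (log2 change -3.51, SE 0.17). EHF, an epithelial ETS factor, fell from 271 and 261 to 52.1 and 55.4 CPM (log2 change -2.31, SE 0.05). FOXO1 rose from 4.77 and 4.82 to 17.3 and 18.4 CPM and FOXP1 fell from 30.2 and 32.5 to 9.76 and 9.05 CPM.

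Clock genes fell more often than they rose, with 5 of 23 higher and 11 lower. PER1, a core repressor of the clock, rose from 7.85 and 8.23 to 25.8 and 26.2 CPM (log2 change 1.69, SE 0.08). NR1D2, the REV-ERB beta repressor, fell from 94.5 and 91.8 to 26.9 and 27.3 CPM (log2 change -1.78, SE 0.06). TEF fell from 24.5 and 25.2 to 9.20 and 8.30 CPM, and PER3 fell from 40.4 and 38.2 to 17.6 and 19.1 CPM, so PER1 and PER3 moved in opposite directions.

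Genes of sodium transport rose by large amounts. Of 34 tested members of 36, 17 rose and 8 fell, and 10 (29.4%) rose by at least 2-fold while none fell as far. Next to SCNN1G, the sodium pump's beta subunit ATP1B1 rose from 62.5 and 61 to 231 and 237 CPM (log2 change 1.92, SE 0.04). HSD11B2, which inactivates cortisol in mineralocorticoid target tissue, rose from 4.13 and 3.68 to 30.1 and 26.9 CPM (log2 change 2.88, SE 0.12). WNK2, a kinase that controls ion transport, rose from 4.95 and 6.30 to 20.7 and 20.1 CPM. SCNN1A, the channel's alpha subunit, fell slightly, from 65.5 and 70.2 to 57.1 and 55.3 CPM (log2 change -0.27, SE 0.05). SGK1, the kinase best known for activating the channel, did not pass the test (log2 change 0.22, SE 0.15, adjusted p = 0.224).

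Potassium and calcium genes had more mixed changes. Of 35 tested potassium channels 13 rose and 10 fell, and KCNK3 rose beside KCNC1 with a log2 change of 2.32 (SE 0.16). Of 47 tested genes in the calcium list 11 rose and 19 fell. TRPS1, counted among the falls, is a transcription factor and not a calcium channel. CACNG4, an auxiliary channel subunit, rose from 54.6 and 58.9 to 227 and 233 CPM (log2 change 2.02, SE 0.05), and RCAN1, an inhibitor of calcineurin, rose from 260 and 253 to 937 and 1011 CPM (log2 change 1.93, SE 0.06). The falls included STC1 and STC2, given above. RCAN3, picked after its values were seen, fell from 38 and 39.1 to 15.6 and 17.3 CPM (log2 change -1.23, SE 0.07).

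Zinc, copper and iron genes rose in 24 of 42 tested cases and fell in 6, with 11 and 3 at 2-fold. ATP7B, a copper-exporting pump, rose from 32.1 and 31.5 to 199 and 188 CPM (log2 change 2.61, SE 0.05). The metallothionein MT2A rose from 24.7 and 27.1 to 112 and 101 CPM (log2 change 2.03, SE 0.08). MT1X, another metallothionein, rose from 8.02 and 9.03 to 26.3 and 21 CPM. Metallothionein genes are near-identical copies, and how reads were split among them is uncertain. The zinc exporter SLC30A1 fell from 95.1 and 96.0 to 44.3 and 50.8 CPM (log2 change -1.01, SE 0.06), and the iron importer SLC11A2 fell from 159 and 148 to 56.4 and 56.1 CPM (log2 change -1.44, SE 0.06).

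Sugar uptake and glycolysis rose at several steps. Of 36 tested members of the glycolysis and hypoxia list 23 rose and 8 fell, with 10 and 1 at 2-fold. PFKFB3, which makes the activator of phosphofructokinase, rose from 144 and 148 to 1433 and 1444 CPM (log2 change 3.30, SE 0.04). The glucose transporter SLC2A1 rose from 50.4 and 57.3 to 161 CPM in both progestin libraries (log2 change 1.58, SE 0.06). HK2, which traps glucose in the cell, rose from 26.5 and 30.02 to 83.6 and 87 CPM, and LDHA, which makes lactate, rose from 465 and 434 to 1093 and 1054 CPM. BNIP3 and NDRG1, known hypoxia-responsive genes, rose by log2 changes of 1.70 (SE 0.05) and 2.24 (SE 0.07).

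The mitochondrial side changed less. PDK4, a kinase that switches off pyruvate dehydrogenase, rose from 2.30 and 1.98 to 22.1 and 21.4 CPM (log2 change 3.37, SE 0.09) and was the single member past 2-fold among 41 tested genes of pyruvate oxidation and the citrate cycle. Of 71 nuclear-encoded respiratory chain genes 26 rose and 3 fell, none by 2-fold, and the median log2 change of 0.10 turned to -0.01 with upper quartile scaling and -0.05 with none. Genes of MYC, its partners and antagonists and of ribosome biogenesis rose in 42 of 60 cases and fell in 7, with a median of 0.21. They rose in 28 and 22 cases under those scalings.

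Amino acid synthesis and transfer RNA charging genes fell in small steps. Of 40 members, all tested, 9 rose and 22 fell, none by 2-fold, with a median of -0.29. ATF4, the transcription factor that induces many of them, fell from 357 and 403 to 243 and 238 CPM (log2 change -0.66, SE 0.05). PSPH, of serine synthesis, fell from 63 and 66.5 to 37.1 and 34.95 CPM (log2 change -0.85, SE 0.06), and AARS1, the alanyl-tRNA synthetase, fell from 489 and 529 to 304 and 312 CPM (log2 change -0.73, SE 0.04). The nucleotide enzyme IMPDH1 rose from 74.8 and 79.8 to 289 and 306 CPM (log2 change 1.94, SE 0.05).

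Steroid, retinoid and xenobiotic enzymes rose in 22 of 44 tested cases and fell in 6, with 11 and 4 at 2-fold. SRD5A1, a steroid 5-alpha-reductase, rose from 16 and 14.6 to 53.1 and 52.4 CPM (log2 change 1.79, SE 0.07). CYP1A1, an enzyme induced by the aryl hydrocarbon receptor, fell from 242 and 217 to 53 and 51.3 CPM (log2 change -2.13, SE 0.06). AKR1C2 rose from 0.915 and 0.821 to 2.45 and 2.46 CPM, and its close paralogs make that value uncertain.

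Most chaperones rose. Of 43 members, all tested, 34 rose and 3 fell, and 10 (23.3%) rose by at least 2-fold while none fell as far. The median log2 change was 0.44 and stayed positive under all scalings, at 0.33 with upper quartile scaling and 0.29 with none. CRYAB, a small heat shock protein, rose from 2.14 and 2.42 to 25 and 28.3 CPM (log2 change 3.53, SE 0.10). The cochaperone BAG3 rose from 59.2 and 60.004 to 219 and 217 CPM (log2 change 1.87, SE 0.04). DNAJB4 rose from 8.22 and 7.79 to 50.6 and 53.6 CPM (log2 change 2.71, SE 0.09), and HSP90AA1, a chaperone of steroid receptors, rose from 3314 and 3036 to 4106 and 4131 CPM (log2 change 0.38, SE 0.05). FKBP4, a receptor cochaperone, did not pass the test (log2 change -0.07, SE 0.04, adjusted p = 0.162), although its relative FKBP5 rose with a log2 change of 2.65 (SE 0.04).

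NRF2 and antioxidant genes rose in 24 of 38 tested cases and fell in 5, with 9 and 2 at 2-fold. OSGIN1, an oxidative stress response gene, rose from 54.1 and 60.7 to 294 and 313 CPM (log2 change 2.40, SE 0.05), and the peroxiredoxin PRDX6 rose from 283 and 287 to 696 and 674 CPM (log2 change 1.26, SE 0.04). NFE2L2, which encodes NRF2 itself, fell from 145 and 140 to 96.0 and 96.6 CPM (log2 change -0.56, SE 0.04). BACH2, a repressor that shares sites with NRF2, fell from 14.4 and 14.1 to 2.43 and 2.95 CPM (log2 change -2.40, SE 0.11). TXNIP, an inhibitor of thioredoxin, fell from 227 and 242 to 94.6 and 96.0 CPM (log2 change -1.30, SE 0.04).

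**Figure D3:**
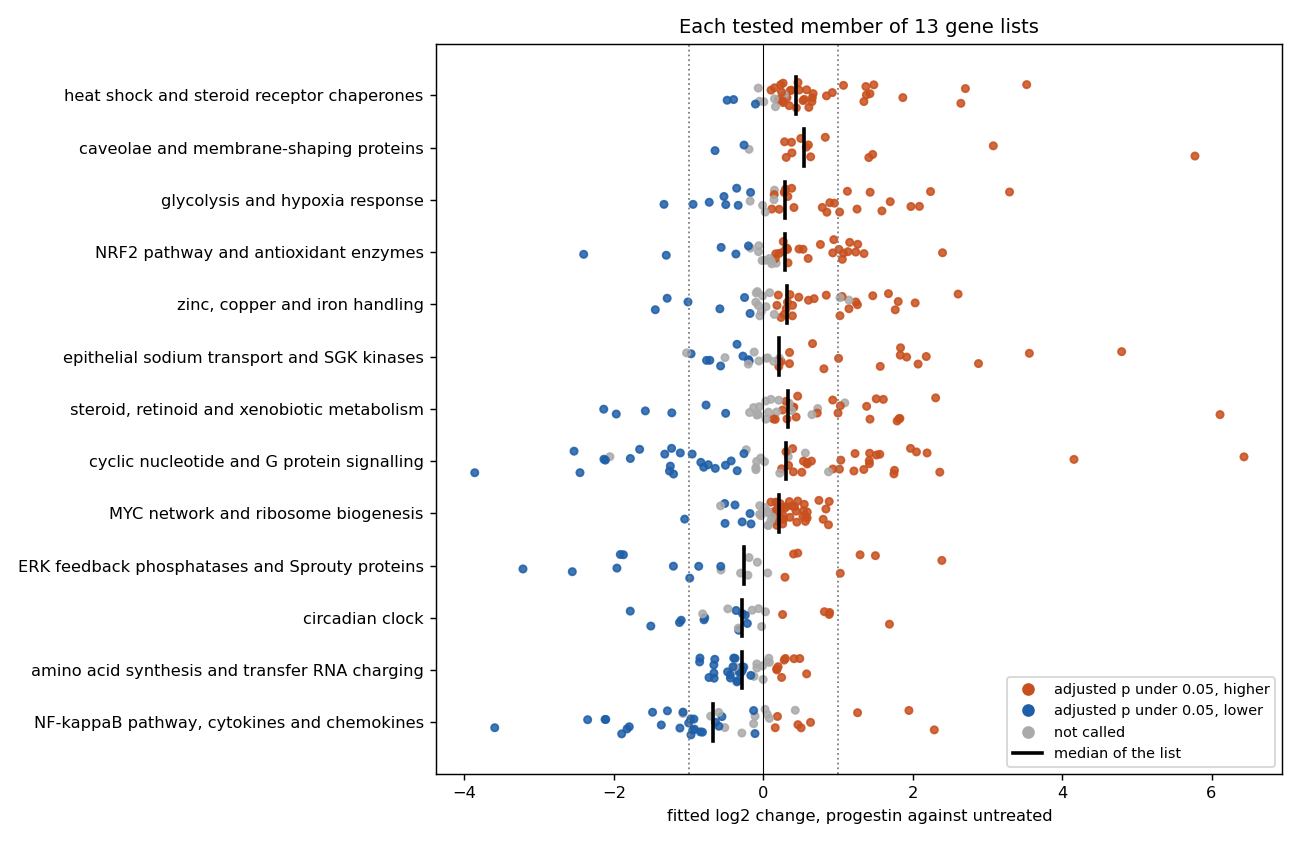
Fitted log2 change of every tested member of 13 gene lists, with orange for higher, blue for lower and grey for uncalled genes, a black bar at each median and dotted lines at 2-fold. The chaperone median lies at 0.44 and the NF-kappaB and cytokine median at -0.67.

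Genes of cell shape and adhesion also changed. Of 16 tested caveolar and membrane-shaping genes 13 rose and 2 fell, with 4 and 0 at 2-fold. PACSIN1, a membrane-bending protein best known from neurons, rose from 25.6 and 25.2 to 217 and 211 CPM (log2 change 3.08, SE 0.05). CAV1, the main coat protein of caveolae, was under the filter. Of 17 tested desmosome and hemidesmosome genes 5 rose and 7 fell, with 2 and 0 at 2-fold. PKP1 and PPL, a plakophilin and a plakin, rose with log2 changes of 4.19 (SE 0.10) and 2.94 (SE 0.05), PKP1 from 1.03 and 0.927 to 17.4 and 17.9 CPM. JUP, which encodes plakoglobin, and DST, a plakin of hemidesmosomes, were among the 7 that fell, JUP from 942 and 1040.3 to 657 and 695 CPM (log2 change -0.55, SE 0.05) and DST from 132 and 126 to 62 and 66.7 CPM (log2 change -0.999, SE 0.05). The desmosomal core protein DSP stayed between 1127 and 1163 CPM in all 4 libraries (log2 change -0.01, SE 0.04).

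At tight junctions CLDN1 fell from 93.1 and 91.8 to 23.3 and 26.5 CPM (log2 change -1.89, SE 0.06), while CLDN4 rose from 622 and 639 to 1133 and 1141 CPM (log2 change 0.85, SE 0.04). Of the 33 genes tested there 15 rose and 11 fell. CD44, a hyaluronan receptor, rose from 24.6 and 26.7 to 95.5 and 95.8 CPM (log2 change 1.89, SE 0.05), and ITGA2, a collagen-binding integrin subunit, fell from 98.3 and 97.6 to 36.7 and 37.4 CPM (log2 change -1.40, SE 0.06). Of the small GTPases, RHOB rose from 116 and 125 to 579 and 616 CPM (log2 change 2.31, SE 0.05) and RND3 fell from 42.4 and 44.2 to 9.54 and 11.8 CPM (log2 change -2.02, SE 0.09).

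In the matrix list 23 of 74 tested members rose and 27 fell, with 17 and 10 at 2-fold. LOX, which crosslinks collagen, rose from 0.286 and 0.311 to 3.95 and 3.10 CPM (log2 change 3.54, SE 0.21), and P4HA2, a collagen prolyl hydroxylase, rose from 53.6 and 53.5 to 249.5 and 239.5 CPM (log2 change 2.19, SE 0.04). TIMP3, a metalloproteinase inhibitor, fell from 14.4 and 15.4 to 3.87 and 4.65 CPM (log2 change -1.81, SE 0.11). F3, which encodes tissue factor, the trigger of coagulation, rose from 0.672 and 0.802 to 10.9 and 10.5 CPM (log2 change 3.83, SE 0.14). The urokinase gene PLAU fell from 0.929 and 1.25 to 0.112 and 0.156 CPM (log2 change -3.04, SE 0.41).

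Secretory and keratin genes stood near the background when changes of any size were counted, with 13 of 42 tested higher and 12 lower. S100P rose from 35.6 and 41.9 to 363 and 332 CPM (log2 change 3.16, SE 0.07), and SLPI, a secreted protease inhibitor, rose from 3.45 and 4.01 to 24.6 and 24.05 CPM (log2 change 2.69, SE 0.11). KRT23 fell from 445 and 478 to 105 and 113 CPM (log2 change -2.08, SE 0.05). KRT5, a basal keratin, had 0 counts in both untreated libraries and 29 and 31 counts with progestin, so no fold is given.

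Among chromatin factors, 34 of 94 rose and 29 fell, with 7 and 3 at 2-fold. SETD7, a lysine methyltransferase, rose from 60.6 and 59.7 to 182 and 179 CPM (log2 change 1.58, SE 0.04). CBX2, a Polycomb gene, rose with a log2 change of 1.36 (SE 0.05). The deacetylase genes HDAC5 and HDAC9 fell by 1.20 (SE 0.06) and 1.59 (SE 0.17) on the log2 scale. EZH2 did not pass the test (log2 change -0.13, SE 0.06, adjusted p = 0.0920). In the autophagy and lysosome list 24 of 69 rose and 15 fell, among them MITF, a regulator of lysosomal genes, which rose from 1.39 and 1.11 to 5.33 and 6.21 CPM (log2 change 2.24, SE 0.16).

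A larger share of long non-coding RNAs than of protein-coding genes fell, a difference given here by counts with no test. At 2-fold, 84 of 1467 long non-coding genes rose (5.73%) and 281 fell (19.2%), against 8.81% and 6.15% of 13795 protein-coding genes. Under 1 CPM the lower shares were 20.7% (long non-coding) and 15% (protein-coding), at 1 to 10 CPM 17.9% and 11.6%, and at 10 CPM or more 8.99% and 2.73%. The long non-coding share was thus the higher one within each range of level, though at 10 CPM or more it rests on only 8 of 89 genes. LINC01836 fell from 2.63 and 2.41 to 0.160 and 0.381 CPM (log2 change -3.22, SE 0.26) and MIR9-3HG, the host gene of a miR-9 precursor, fell from 11.8 and 11.5 to 2.18 and 2.24 CPM (log2 change -2.40, SE 0.10). KCNIP2-AS1 rose from 0.0572 and 0.146 to 3.01 and 3.21 CPM (log2 change 4.72, SE 0.26), and LINC02012 rose from 1.12 and 1.05 to 6.32 and 6.54 CPM (log2 change 2.58, SE 0.15). Counting used the strand, so antisense genes were counted apart from their partners.

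**Figure D4:**
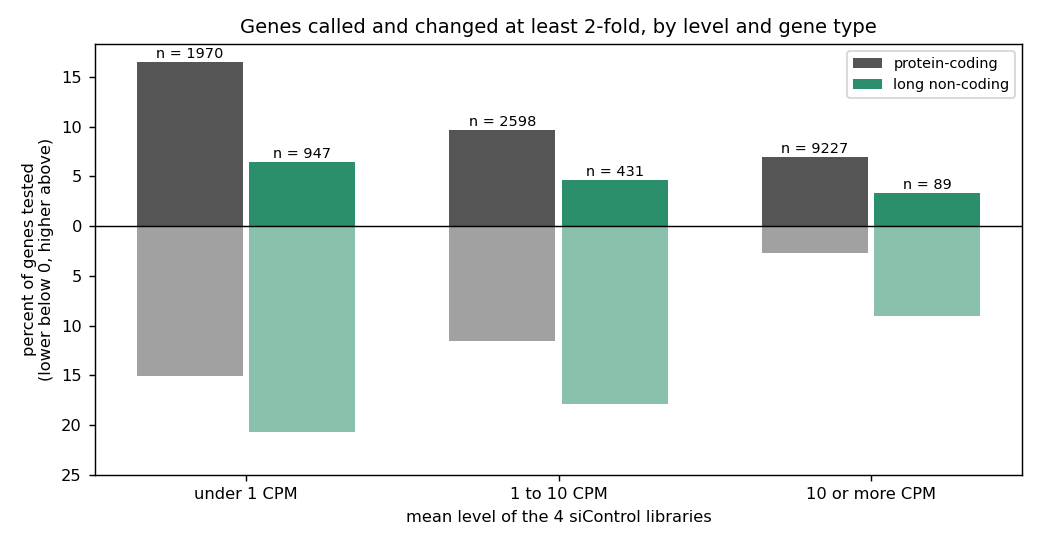
Percent of tested protein-coding (grey) and long non-coding genes (green) that were called and changed at least 2-fold, higher above 0 and lower below 0, by mean level over the 4 siControl libraries, with the number of genes over each bar. The long non-coding bars below 0 reach 20.7%, 17.9% and 8.99% and the protein-coding bars 15%, 11.6% and 2.73%.

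Some changed genes were neighbours among the tested genes. Among neighbouring tested genes, 54 runs of at least 3 rose together by 2-fold or more (178 genes) and 47 fell together (167 genes). Genes that were not tested were skipped, so members can lie far apart, and the run of ARSJ, NDST4 and TRAM1L1 spanned 3185 kb. Some runs also count a locus more than once through antisense or readthrough genes, such as EFNA4, EFNA4-EFNA3 and EFNA3. The counts are therefore not counts of separate loci. How many runs the share of changed genes alone would give was not tested. On chromosome 11 (hg38 chr11:34478793-34710161) a run of 5 fallen genes held the ETS factors ELF5 and EHF. On chromosome 12 (hg38 chr12:52487174-52814551) KRT6A, KRT5, KRT73, KRT2 and KRT4 rose together, all of them keratin genes with similar copies. KRT5 lay near the floor, with 0 counts in both untreated libraries and only 29 and 31 counts with progestin. Another run of 5 on chromosome 12 (hg38 chr12:88492793-89369301) fell and held DUSP6 and KITLG, which encodes stem cell factor. These runs were picked after their members were seen.

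Promoter sequences, from 250 bases before to 50 bases after the gene start, were taken from RefSeq (GRCh38.p14) and matched to 12328 of the 18351 tested genes, by gene ID or symbol. Perfect matches to the motif bound by progesterone and glucocorticoid receptors (GNACA and TGTNC with 3 bases between them, which reads alike on both strands) were found in 24 promoters (0.195%). They were found in 2 of 992 promoters of 2-fold higher genes (0.202%) and in 4 of 871 of 2-fold lower genes (0.459%). Among promoters of uncalled genes 9 of 4429 (0.203%) held a match. A C/EBP motif, TTNNGNAA on either strand, was found in 26.4% of all promoters, in 24.9% of those of higher genes and in 32.4% of those of lower genes. The AP-1 motif TGANTCA had shares of 4.76%, 5.04% and 7.46% in the same order, and the TATA box letters TATAAA, on either strand, 6.19%, 7.76% and 11.8%. The oestrogen receptor motif (GGTCA and TGACC, also 3 bases apart) was found in 2 promoters in all, none of a higher gene and 1 of a lower gene. Median GC content was 65%, 67.7% and 62%, lowest in promoters of lower genes, and its part in the shares of these A- and T-rich letters was not tested.

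The 6 promoters of 2-fold changed genes with the receptor motif belonged to TXNIP, PPARGC1A, EPHA4, CHST7, SLAMF8 and H1-3, chosen after these values were seen. The 250 bases upstream of 4 of these genes are shown because they hold the letters that the receptor is known to bind, with the match in capitals and each sequence 5′ to 3′ on the strand of its gene. They are, in GRCh38.p14, chr1:145996580-145996829 (minus strand) for TXNIP, chr4:24472906-24473155 (minus strand) for PPARGC1A, chr2:221574203-221574452 (minus strand) for EPHA4 and chrX:46573515-46573764 (plus strand) for CHST7.
TXNIP: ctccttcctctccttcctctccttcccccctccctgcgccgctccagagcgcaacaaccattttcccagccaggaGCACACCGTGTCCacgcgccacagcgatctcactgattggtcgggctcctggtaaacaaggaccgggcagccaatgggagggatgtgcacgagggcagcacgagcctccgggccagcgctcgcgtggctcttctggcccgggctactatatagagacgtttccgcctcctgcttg
PPARGC1A: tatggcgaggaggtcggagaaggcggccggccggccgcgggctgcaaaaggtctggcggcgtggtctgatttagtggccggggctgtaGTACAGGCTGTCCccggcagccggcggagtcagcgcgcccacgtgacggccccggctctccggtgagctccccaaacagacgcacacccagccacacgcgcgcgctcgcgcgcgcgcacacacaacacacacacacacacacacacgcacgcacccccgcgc
EPHA4: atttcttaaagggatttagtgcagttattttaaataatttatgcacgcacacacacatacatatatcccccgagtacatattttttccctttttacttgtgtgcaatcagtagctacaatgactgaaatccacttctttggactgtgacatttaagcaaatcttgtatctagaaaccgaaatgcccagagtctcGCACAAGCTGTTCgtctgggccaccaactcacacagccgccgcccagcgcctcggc
CHST7: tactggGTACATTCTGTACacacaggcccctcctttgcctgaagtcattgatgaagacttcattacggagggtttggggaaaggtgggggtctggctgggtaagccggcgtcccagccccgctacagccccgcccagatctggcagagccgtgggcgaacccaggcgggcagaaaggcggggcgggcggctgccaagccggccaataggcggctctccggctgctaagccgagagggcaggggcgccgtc

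The match began 175 bases before the gene start in TXNIP, 162 in PPARGC1A, 56 in EPHA4 and 244 in CHST7. Each gene was given a single start, and whether T47D cells use that start was not tested. TXNIP and PPARGC1A fell, as given above. EPHA4, a receptor tyrosine kinase for ephrins, fell from 1.59 and 1.30 to 0.608 and 0.537 CPM (log2 change -1.31, SE 0.22). CHST7, a sulfotransferase that acts on chondroitin, rose from 1.30 and 1.33 to 3.66 and 4.04 CPM (log2 change 1.54, SE 0.14). So 3 of the 4 genes with a printed match fell and 1 rose, a tally of genes that were picked by their change. SLAMF8 rose, with no count in either untreated library and 0.0800 and 0.416 CPM with progestin (log2 change 7.21, SE 1.43). H1-3 fell (log2 change -2.94, SE 0.53), and the match there reached past the gene start. Whether the motif bears on any of these changes was not tested.

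The 24 genes with the largest changes were compared with the siCEBPA libraries by a test of the difference of the 2 responses, which 7.24% of all tested genes passed (1329 genes). None of the 12 rises and 7 of the 12 falls passed it. These counts were reached with unlike precision. SEs of the difference ran from 0.20 to 0.64 among the rises and from 0.11 to 0.26 among the falls. The genes were chosen by their siControl changes, which enter this difference too, so smaller changes in siCEBPA libraries were favoured. The share of all tested genes is therefore not a fair measure for them. The 24 genes kept their direction in siCEBPA libraries. DUSP6 was the only 1 of the 7 with a deeper fall there, from 29 and 28.1 to 0.860 and 1.40 CPM, a difference of -1.45 (SE 0.19, adjusted p = 0.000235). LINC01687 fell less, from 67.8 and 73.4 to 15.1 and 13.5 CPM, a difference of 0.74 (adjusted p = 0.000463). These 2 differences passed the test under each of the alternatives run, and the differences of STMND1, NCMAP, NUAK2, FGD3 and VAV3 each lost their call when at least 1 library was left out.

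**Figure D5:**
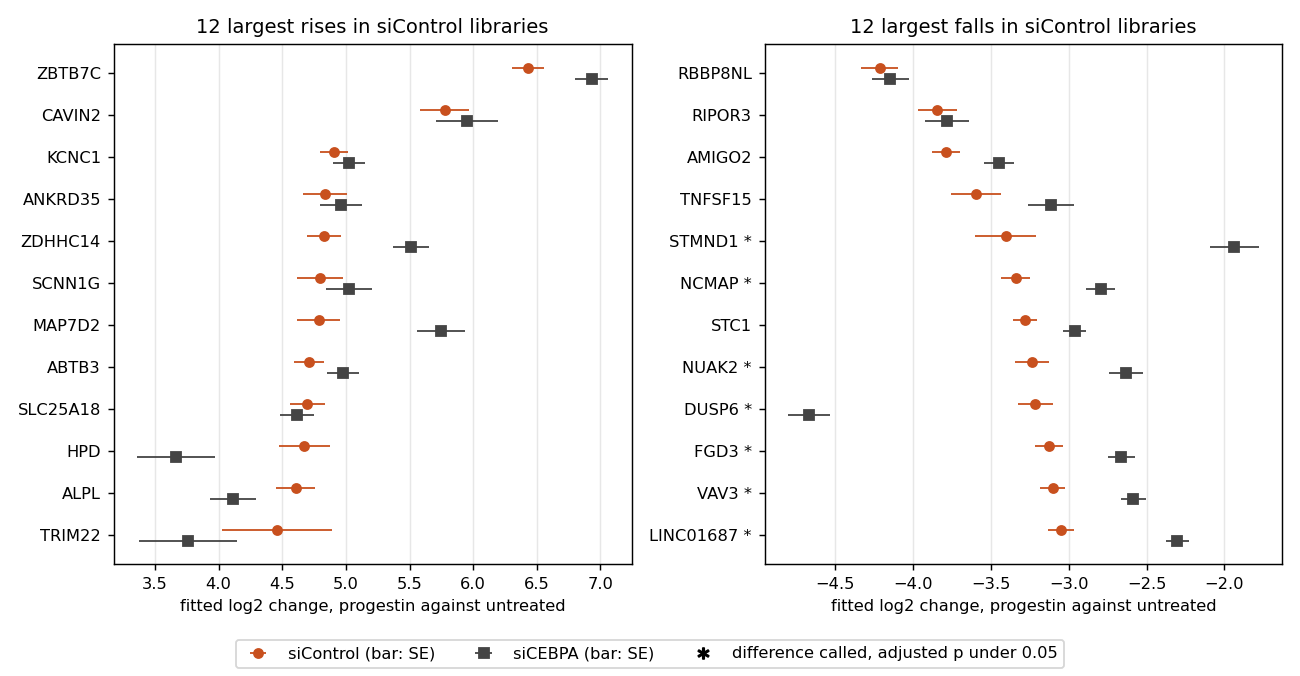
Fitted log2 change in siControl (orange circles) and siCEBPA libraries (dark squares) of the 12 largest rises and the 12 largest falls in siControl libraries, with bars of 1 SE and an asterisk where the difference passed an adjusted p of 0.05. Among the 7 genes with an asterisk DUSP6 is the only one whose siCEBPA value lies farther from 0.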

How the data were processed

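RNA-seq of 8 siRNA libraries of T47D cells was analysed, 4 of them siControl; the other RNA-seq libraries entered 1 alternative, and 18 ChIP samples were not analysed here. The authors deposited raw read pair counts per gene, made with featureCounts v1.5.1 from STAR alignments (paired, strand setting 2, GENCODE 24, hg38), per the file headers; the kit was TruSeq Stranded mRNA, per the labels' protocols. Gene symbols were found for 93.4% of gene IDs. Counts were filtered with filterByExpr, scaled by TMM and fitted with edgeR 4.0.16 (R 4.3.3, quasi-likelihood, robust); p-values were adjusted by Benjamini-Hochberg over 18351 genes with a threshold of 0.05. The SE is the size of the log2 change divided by the square root of F. The fit had 4 residual degrees of freedom.

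Groups came from sample titles. No label pairs the samples by replicate number, so no block was used. Genes were named by rule: at least 5 CPM in 1 group, called and not overlapping, the 12 largest rises and falls by log2 change and by CPM difference; in each list the first 3 members and the 5 largest called changes of at least 1 CPM; and the 6 largest rises and falls of long non-coding RNAs of at least 1 CPM. The members and the lists were chosen with earlier results of these data known, and the TATAAA motif was added after the others. On counts simulated for the siControl comparison (17803 genes), 67, 67 and 66 genes were changed 1.5-fold, 2-fold and 4-fold. Of these 94%, 98.5% and 98.5% were recovered. The changed genes had a mean of at least 1 CPM, rose and fell in equal numbers and were far fewer than those called in the data. Recovery of genes at lower levels, or with as many changes as in the data, was not tested. Alternatives covered scaling, filters, DESeq2 1.42.0, a replicate block, other sets of libraries, thinning and leaving out each library. A few items are not reported here.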

Additional observations from a re-analysis of the deposited data

Results flagged for a closer look

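For 7 of the 24 genes with the largest changes, the progestin response differed between siCEBPA and siControl libraries by the test of the difference itself (edgeR quasi-likelihood test, Benjamini-Hochberg adjustment), against 7.24% of all tested genes. The 24 genes were chosen by their siControl changes, which enter the difference too, so that share is not a fair measure for them. Each difference below is the log2 change in siCEBPA minus that in siControl libraries. STMND1 fell less with siCEBPA, by a difference of 1.47 (SE 0.26, adjusted p = 0.00594). The same held for LINC01687 at 0.74 (SE 0.11, adjusted p = 0.000463), NUAK2 at 0.60 (SE 0.16, adjusted p = 0.0332) and NCMAP at 0.55 (SE 0.13, adjusted p = 0.019). VAV3, at 0.52 (SE 0.11, adjusted p = 0.0146), and FGD3, at 0.46 (SE 0.13, adjusted p = 0.0409), also fell less. DUSP6 fell further with siCEBPA, with a difference of -1.45 (SE 0.19, adjusted p = 0.000235). STMND1 was no longer called without siControl progestin replicate 1 (adjusted p = 0.0544) or replicate 2 (adjusted p = 0.0663), and VAV3 without siControl progestin replicate 1 (adjusted p = 0.0674) or siCEBPA untreated replicate 2 (adjusted p = 0.0535). NCMAP was no longer called without siControl progestin replicate 2 (adjusted p = 0.131), siCEBPA untreated replicate 2 (adjusted p = 0.0652) or siCEBPA progestin replicate 1 (adjusted p = 0.08). NUAK2 lost its call without either siControl progestin library, siControl untreated replicate 2, siCEBPA untreated replicate 2 or siCEBPA progestin replicate 1 (adjusted p from 0.0792 to 0.168). FGD3 lost it when any library but siControl untreated replicate 1 and siCEBPA untreated replicate 2 was left out (adjusted p from 0.0653 to 0.207) and with upper quartile scaling (adjusted p = 0.053). STC1 gained a call with the replicate block (adjusted p = 0.0309), with no filter on low counts (adjusted p = 0.0412) and without siCEBPA untreated replicate 1 (adjusted p = 0.0396). TRIM22 gained one without siCEBPA untreated replicate 1 (adjusted p = 0.018), and ZDHHC14 gained one without siControl untreated replicate 2.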

How the results depend on the processing

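The count of called genes kept within 1.5 times of 10741 under every alternative run, from 8933 without siControl progestin replicate 1 to 11403 with the replicate block. The 3039 genes called at 2-fold became 1535 by a test against a 2-fold change itself (glmTreat). With a filter of at least 1 CPM in 2 libraries, which tests fewer genes, they became 1986, and the lower ones among them 934 against 1536. Leaving out 1 library gave 8933 to 9897 called genes and 2691 to 2973 at 2-fold. The difference between siCEBPA and siControl responses was less steady: 692 to 1381 genes when 1 library was left out, with 692 without siControl progestin replicate 1 and 779 without replicate 2, against 1329. The replicate block raised it to 2271, and the cause was not tested. Same-numbered libraries deviated together with correlations of only 0.019 to 0.095, so the numbers are not taken to pair the samples. Of the values of single named genes under the alternatives, 4709 kept their direction and side of the threshold, 54 became called, 47 lost their call and 1 changed sign: ATP5F1B, at 0.15 with TMM factors and at -0.0037 with no scaling factors (adjusted p = 0.936). Of the list medians under the alternatives, 266 moved by at least the typical shift between replicates of the list and 356 did not. Small medians are therefore not steady. Counts of higher members moved past 1.5 times in 8 values and stayed within it in 616. Counts of lower members moved in 29 and stayed in 595. No endothelial or blood cell marker was left with the filter of at least 1 CPM.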
